A study of Mus musculus with 11 samples.

Results

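The MamBo89HER2 stable line was established from tumor A, a mammary tumor of a virgin female FVBhuHER2 mouse, whose transgene encodes human HER2. Of the 11 RNA-seq libraries of the MamBo lines, 4 belong to MamBo89: 1 untreated culture named AG3 and 3 bulk cultures. The bulk cultures were untreated (NT), given trastuzumab at 30 µg/ml for 30 days followed by 30 drug-free days (TRNT), or given it for 60 days (TRT). The other 7 libraries, used here for scaling and for levels in other lines, are 4 of MamBo38 (2 untreated, 1 TRNT and 1 TRT) and 3 of MamBo43 (1 untreated, 1 TRNT and 1 TRT). The sample labels do not call AG3 a clone. It was taken as one because the methods list a HER2-positive MamBo89 clone and every other MamBo89 library is accounted for. The 4 libraries carry the same code in their names, so the code does not separate AG3 from the bulk cultures. The table holds 1 column for each culture, while the methods speak of replicates of each sample, and whether a column pools several is not given in the sources used here. AG3 stands for 1 isolate, and a difference between AG3 and the bulk cultures cannot be told apart from a difference between single cultures. The comparison asks which genes an isolate of the stable line expressed outside the range of its bulk cultures, where the mix of untreated and treated cultures sets the range: 2023 genes of 12555 with enough counts did so by at least 2-fold.

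A bulk culture averages over many tumor cells, whereas a clone descends from 1 of them and carries that cell's DNA copy number, chromatin marks and state forward. Genes that are silenced or active in a heritable manner can therefore appear in a clone as all-or-nothing differences where most bulk cells are in the other state. Gains or losses of chromosomes can appear as small shifts of many neighbouring genes. Sca-1, the product of Ly6a, CD24, CD44 and CD29 are the surface proteins by which mammary stem-like fractions are commonly sorted. These statements are background and not results of these data.

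Total counts were 18356320 in AG3 and 22295814, 17040454 and 17959052 in NT, TRNT and TRT. Values below are CPM, counts relative to a library size scaled by the TMM method over the 11 libraries, and bulk values are given in the order NT, TRNT and TRT. The TMM factor was 1.119 in AG3 and 0.9709 to 1.024 in the other 10 libraries. No pair of libraries held the same counts, and the bulk pairs differed beyond counting noise, with a chi-square per degree of freedom of 14.5 to 42.1. Among genes of at least 5 CPM in either library, 54 to 260 differed by 2-fold between bulk cultures, and 1677 to 2179 differed between AG3 and a bulk culture. Markers of luminal epithelium other than Krt19 were present in the 4 libraries. The summed level of the 7 markers was 2450 CPM in AG3 and 3280 to 4150 CPM in the bulk cultures. Krt19 was at 0 in AG3, NT and TRNT and at 0.0544 CPM in TRT. For other cell types, Ptprc, Adgre1, Cd3e, Cd3d, Cd8a, Lum, Dcn, Acta2 and Adipoq were at 0 counts in the 4 libraries. The summed levels in AG3 and the bulk cultures were 35.4 and 50.1 to 96.8 CPM for 6 fibroblast markers, 0.536 and 0.23 to 0.653 CPM for 4 endothelial markers, and 7.01 and 7.83 to 16.7 CPM for 4 macrophage markers. They were 0 and 0 to 0.218 CPM for 4 T cell markers, and 0.536 and 0.184 to 0.435 CPM for 3 adipocyte markers. Of the fibroblast markers, Pdgfra (24.5 CPM in AG3) and Col1a1 (10.8 CPM) made up nearly the whole sum.

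Of 12555 genes with enough counts, 2023 (16.1%) lay outside the bulk range by at least 2-fold. AG3 was at least 2 times the highest bulk culture for 947 genes (7.54%), and at most 1/2 of the lowest for 1076 genes (8.57%). Values of 3 counts or fewer were set to 3 counts first, equal to 0.138 to 0.175 CPM in these libraries. Against this rule, 1323 genes (10.5%) differed by 2-fold between the highest and the lowest bulk culture. The rule is a description. By edgeR's quasi-likelihood test of AG3 against the 3 bulk cultures, 2408 genes (19.2%) passed an adjusted p under 0.1 with at least a 2-fold change, 1185 higher (9.44%) and 1223 lower (9.74%), and 1884 of the 2023 genes passed in the same direction. The test takes the spread of AG3 to be that of the bulk cultures, with 2 residual degrees of freedom, and an exact permutation test of 1 against 3 libraries cannot go below p = 0.25. The overlap of 1884 genes is not independent support, because the test and the rule use the same libraries. With total counts in place of TMM, higher genes made up 58% of those outside the range, against 46.8%. At the edge of the rule, Ccdc66 (2.001-fold higher) and Ptgfrn (2.002-fold lower) lay just outside, and Ckap2l (1.997-fold higher) and Eef2 (1.999-fold lower) just inside.

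**Figure D1:**
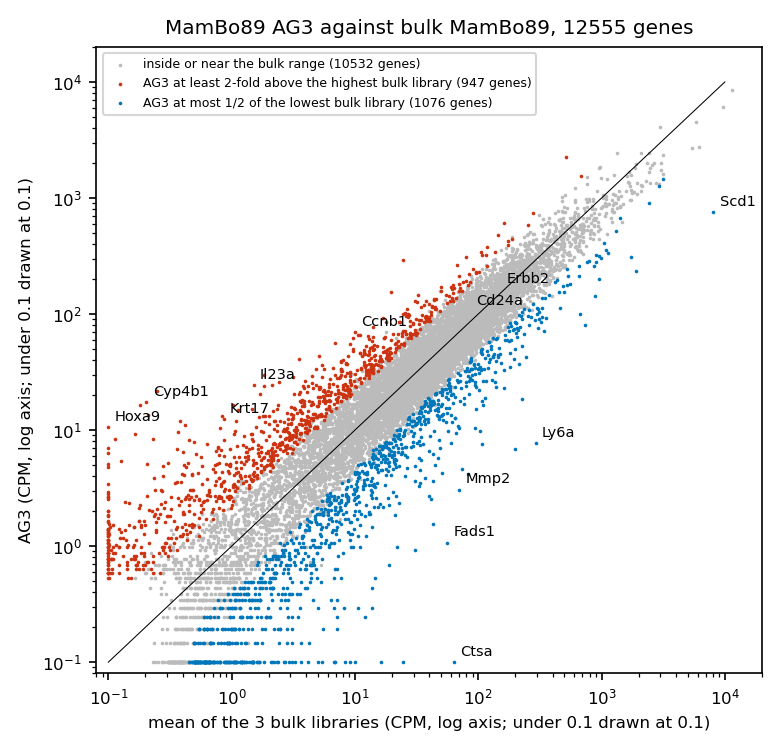
Level of each of 12555 genes in AG3 (vertical axis) against the mean of the 3 bulk cultures (horizontal axis), both in CPM on log axes, with values under 0.1 CPM drawn at 0.1. The 947 genes above and the 1076 genes below the bulk range by 2-fold are coloured; Ctsa, Ly6a, Fads1 and Mmp2 lie far below the diagonal, Hoxa9 and Cyp4b1 far above it, and Erbb2 and Cd24a on or near it.

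Levels in AG3 moved with base composition. In 5 equal groups of genes by the GC content of their longest transcript, the median log2 difference of AG3 from the bulk mean was 0.34, 0.11, −0.08, −0.24 and −0.36 from the lowest to the highest GC content. The bulk cultures, each set against the other 2, stayed within −0.05 and 0.07 in these groups. Across 12547 genes, which are not independent replicates, Spearman's rho with GC content was −0.33 for AG3 and −0.17 to 0.095 for the bulk cultures. The part of GC content in the results was not tested beyond centring AG3 on genes of like GC content, which left 894 genes higher and 922 lower, 1608 of them on the same side as before. Where this centring moved a list's count, the centred count is given beside it.

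Of the lists with at least 10 genes measured, that of the cell cycle had the highest share of genes outside the range. Cyclins and their kinases drive a cell through S phase and mitosis, the Mcm proteins form the helicase that opens replication origins, and the kinases Plk1, Aurka and Aurkb, the kinesins and the anaphase activator Cdc20 act at mitosis. Of 37 genes listed, 25 (67.6%, against 7.54% of all genes) were higher in AG3 by at least 2-fold and none was lower; by edgeR, 28 rose and none fell. The median log2 fold change was 1.53, against −0.04 over all genes. With GC centring, 26 were higher.

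Ccnb1, the mitotic cyclin B1, stood at 69.3 CPM in AG3 and at 10.4, 10.5 and 9.14 CPM in NT, TRNT and TRT (log2 fold change 2.79 ± 0.15 (SE), adjusted p = 0.00205 by edgeR). Of its 75-base windows, 35.2% are shared with pseudogenes, to which reads could be assigned. Cdc20 stood at 65.4 CPM against 13.1, 10 and 8.7 CPM (2.62 ± 0.22, adjusted p = 0.00297). Both genes were close together in the bulk cultures and several times higher in AG3. Kif20a, a kinesin of cytokinesis, was at 50.2 CPM against 10.2, 8.97 and 9.95 CPM, and Plk1 at 43.5 CPM against 10.7, 8.8 and 7.02 CPM. Of the helicase subunits, Mcm6 was at 128 CPM against 33.8, 30.1 and 30.8 CPM, Mcm3 at 110.4 CPM against 29.7, 23.6 and 25.6 CPM, and Mcm5 at 51.3 CPM against 14, 13.8 and 12.1 CPM. AG3 was thus outside the range for genes of both S phase and mitosis. Top2a, which untangles replicated DNA, was at 309 CPM against 88.1, 79.1 and 72.6 CPM, and Mki67, the Ki-67 antigen of dividing cells, at 136 CPM against 50.8, 36.8 and 42.5 CPM. The mitotic regulator Foxm1 was at 44.8 CPM against 15.1, 11.5 and 12.4 CPM. The other genes outside the range ran from Ccna2, cyclin A2 (46.3 CPM against 8.92 to 12.4 CPM), to Ccne1, cyclin E1 (7.65 CPM against 3.08 to 3.61 CPM).

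The members that stayed inside the limit were not all alike. Mcm7 (85.6 CPM against 43.8, 40.1 and 39.9 CPM) and Rrm1 (107 CPM against 53.0, 46.2 and 58.0 CPM) passed the edgeR test with folds under 2 over the highest bulk culture. Pcna, the replication clamp, was at 157 CPM against 126, 122 and 139 CPM, and its log2 fold change of 0.28 ± 0.14 did not pass (adjusted p = 0.166). E2f1, a transcription factor of S-phase genes, was the 1 listed gene below 0, at 38.1 CPM against 59.1, 57.4 and 66.4 CPM. In the list of cell cycle inhibitors and D cyclins, 3 of 16 genes were higher and none lower (median 0.74), and 3 higher and 1 lower after GC centring. Mtap, a methionine salvage enzyme encoded beside Cdkn2a, was at 86.0 CPM against 29.4, 25.8 and 14.4 CPM, and Ccnd2 at 259 CPM against 128, 117 and 105 CPM. Cdkn1c, an inhibitor, had 11 counts against 3, 1 and 2 counts, a ratio of 3.88 over NT with a 95% counting interval of 1.33 to 18.8. It was called by edgeR but not with DESeq2, nor when NT or TRNT was left out. Here and below, more or fewer cells of a kind and more or less RNA per cell cannot be told apart.

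**Figure D2:**
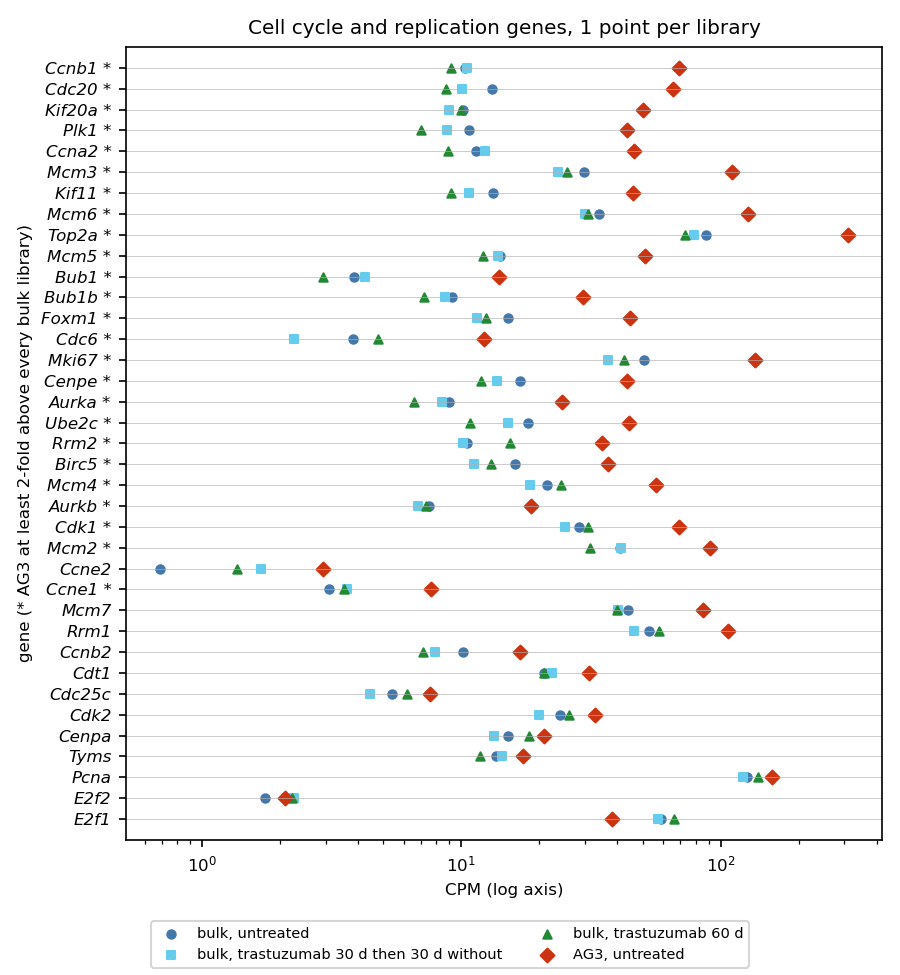
Level of the 37 cell cycle and replication genes in the 4 MamBo89 libraries, 1 point per library, in CPM on a log axis, ordered by the ratio of AG3 to the bulk mean. AG3 (diamonds) lies to the right of the 3 bulk points for the genes in the upper part of the plot, from Ccnb1 at 69.3 CPM downwards, and to their left for E2f1 at 38.1 CPM.

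The upstream stretches of 5 of these genes are shown because promoters of cell cycle genes share short elements: the CCAAT box, the CHR element (TTTGAA) and E2F sites (TTTCGCGC or TTTGGCGC). Each is the 150 bases before the start site, from RefSeq on GRCm38.p6, on the strand of the gene, with matches to the 3 motifs on either strand in capitals; in Mcm6 a pair of E2F matches overlaps. They lie at chr4:118437344-118437493 (Cdc20, minus strand), chr19:37376232-37376381 (Kif11, plus), chr11:99024190-99024339 (Top2a, minus), chr1:128359706-128359855 (Mcm6, minus) and chr8:75109359-75109508 (Mcm5, plus).
Cdc20: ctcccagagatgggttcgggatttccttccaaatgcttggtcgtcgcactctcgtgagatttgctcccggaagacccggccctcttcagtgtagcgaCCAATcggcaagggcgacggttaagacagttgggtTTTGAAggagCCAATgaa
Kif11: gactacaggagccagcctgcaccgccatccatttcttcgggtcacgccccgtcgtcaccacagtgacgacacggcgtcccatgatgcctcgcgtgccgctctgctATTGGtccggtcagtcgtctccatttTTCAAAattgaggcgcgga
Top2a: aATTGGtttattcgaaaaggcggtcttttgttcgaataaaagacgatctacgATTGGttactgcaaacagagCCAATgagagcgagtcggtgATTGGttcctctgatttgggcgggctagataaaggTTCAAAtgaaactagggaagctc
Mcm6: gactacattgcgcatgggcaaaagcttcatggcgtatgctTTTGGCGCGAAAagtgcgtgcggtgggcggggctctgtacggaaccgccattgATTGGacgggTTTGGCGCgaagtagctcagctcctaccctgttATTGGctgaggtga
Mcm5: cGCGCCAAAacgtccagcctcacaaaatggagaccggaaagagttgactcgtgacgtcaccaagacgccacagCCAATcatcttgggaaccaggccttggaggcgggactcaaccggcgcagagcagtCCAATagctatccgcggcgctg

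The Cdc20, Kif11 and Top2a stretches hold CCAAT boxes and a CHR element, and those of Mcm6 and Mcm5 hold CCAAT boxes and E2F matches. Of the 25 cell cycle genes outside the range, 20 had a promoter entry, counted over 250 bases before to 50 after the start. A CCAAT match was found in 17 of the 20 genes (85%), against 41.1% of 27025 genes with an entry. A CHR match was found in 10 (50%, against 20.2%) and an E2F match in 4 (20%, against 0.929%). Over the whole list, 30 genes had an entry, and 24 of them (80%) held a CCAAT match, 13 (43.3%) a CHR match and 7 (23.3%) an E2F match. A match is a description of these letters and not evidence that a factor binds there.

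Ly6a, which encodes Sca-1, was 35.1-fold below the lowest bulk culture. Ly6a stood at 7.74 CPM in AG3 and at 302, 271 and 301 CPM in NT, TRNT and TRT, a bulk mean of 291 ± 17.3 CPM (SD, n = 3). The log2 fold change was −5.23 ± 0.20 (adjusted p = 0.000915 by edgeR), and 2.38% of the gene's windows are shared with its relatives. The gene lies on chromosome 15 (mm10, 74994877 to 74998031). Of 18 stem and progenitor markers with enough counts, 6 (33.3%, against 8.57% of all genes) were lower and 1 was higher, with a median log2 fold change of −0.14 that total counts turned to 0.02. Sox2, a pluripotency factor, was at 0.292 CPM against 6.03, 4.6 and 4.41 CPM. Kit, the stem cell factor receptor of luminal progenitors, was at 94.2 CPM against 352, 329 and 313 CPM, Nt5e (CD73) at 35.2 CPM against 232, 200.2 and 107 CPM, and Aldh1a3, a retinaldehyde dehydrogenase, at 1.07 CPM against 7.69, 3.67 and 5.93 CPM. Eng had 3 counts in AG3 and 16, 12 and 24 counts in the bulk cultures, a ratio of 4.79 to the lowest with a counting interval of 1.64 to 23.2. In the other direction, Lgr6, an R-spondin receptor, was at 56.2 CPM against 14.1, 3.9 and 2.77 CPM.

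The RNAs of CD24, CD44 and CD29, which the study measured with Sca-1 as surface proteins, did not pass the test. Cd24a was at 105.6 CPM against 97.5, 66.8 and 92.3 CPM, and Cd44 at 230.2 CPM against 231, 243 and 231 CPM, with log2 fold changes of 0.30 ± 0.22 and −0.03 ± 0.13. Itgb1 (CD29) was at 879 CPM against 1169, 1206 and 1022 CPM, a log2 fold change of −0.36 ± 0.16 (adjusted p = 0.127).

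Ly6a lies in a cluster of related genes, and the relatives examined there were also lower. They were looked up after the Ly6a value was seen. Ly6c1 was at 2.73 CPM against 42.0, 46.2 and 30.6 CPM, with 23.2% of its windows shared with Ly6c2 and Ly6a. Ly6d was at 357 CPM against 1079, 1018 and 1159 CPM, and Ly6e at 907 CPM against 2426, 2269 and 2559 CPM. Lynx1, a nicotinic receptor modulator at the edge of the cluster, was at 18.4 CPM against 56.8, 54.8 and 57.6 CPM. Ly6c2 had 0 counts in AG3 (at least 3.35-fold lower) and Ly6i had 1 count. Of the 8 genes named Ly6 or Lynx1 with enough counts from Lynx1 to Ly6c2 (chromosome 15, 74747852 to 75111970), 7 were outside the range and lower. The exception, Ly6m, was at 0.730 CPM against 1.31 to 1.81 CPM. Genes of other names in this interval were not looked up. GC centring moved Ly6e inside the limit.

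Of 14 hormone receptors and luminal factors, 4 (28.6%) were lower by at least 2-fold and none was higher (median −0.69), and with total counts 2 were lower. For this list and those below, the shares over all genes are 7.54% higher and 8.57% lower. Cited1, a transcriptional coactivator of the mammary duct, was at 7.55 CPM against 77.8, 86.3 and 155 CPM (log2 fold change −3.82 ± 0.51, adjusted p = 0.006). Xbp1, a factor of secretory cells, was at 112 CPM against 318, 289 and 385 CPM, and Gata3, a luminal fate factor, at 12 CPM against 26.8, 28.7 and 35.4 CPM. The growth hormone receptor Ghr was at 12.5 CPM against 28.2, 28.3 and 25.3 CPM. Esr1, the estrogen receptor, was level with the bulk cultures at 8.18 CPM against 8.24, 9.26 and 6.96 CPM.

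Of 15 milk and secretory genes, 5 were lower and 1 was higher (median −0.59). The caseins Csn3 (337 CPM against 1369.9, 1006 and 985 CPM), Csn1s1 (104 CPM against 335, 371 and 232 CPM) and Csn1s2a (4.24 CPM against 82.3, 55 and 15 CPM) lay below every bulk culture. Wfdc18, a secreted WAP-domain protein, was at 233 CPM against 1596, 991 and 3172 CPM, and the mucin Muc1 at 0.243 CPM against 1.15, 1.11 and 1.41 CPM. Btn1a1, the butyrophilin of milk fat globules, was higher, at 3.02 CPM against 0.783, 0.117 and 0.49 CPM.

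Keratins and junction genes were divided. Of 11 keratins, 2 were higher and 2 lower (median −0.78), with 1 lower after GC centring. The basal keratins Krt17 (12.5 CPM against 0.506, 1.11 and 0.979 CPM) and Krt14 (34.6 CPM against 6.45, 1.92 and 11.6 CPM) were higher, while the basal factor Trp63 was lower (0.974 CPM against 13, 7.4 and 7.51 CPM). Krt16 was at 0.243 CPM against 2.39, 2.21 and 3.92 CPM, with 28.9% of its 75-base windows shared with other transcripts, and Krt80 at 2.68 CPM against 6.95, 6.47 and 5.82 CPM. The luminal keratins Krt8 (440.1 CPM against 954, 894 and 687 CPM) and Krt18 (498 CPM against 994, 905 and 662 CPM) stayed inside the limit. Of the 6 luminal markers with enough counts, 1 (Kit) was lower and none higher, and of the 4 basal markers 2 were higher and 1 lower. The summed level of the 7 basal markers was 50.3 CPM in AG3 and 12 to 20.9 CPM in the bulk cultures, and Krt5 and Acta2, defining basal genes, were at 0 counts in AG3.

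Of 15 claudin and tight junction genes, 3 were higher and 1 lower (median 0.64), and 2 higher and none lower after GC centring. Cldn4 was at 29.8 CPM against 2.26, 1.05 and 2.23 CPM (log2 fold change 3.99 ± 0.35, adjusted p = 0.00297), and Ocln, occludin, at 67.3 CPM against 29.4, 26.9 and 22.1 CPM, a difference that GC centring moved inside the limit. Cldn8 (higher, 15 counts in AG3) and Cldn15 (lower, 13 counts) were outside the range and did not pass the test. Of 24 epithelial adhesion genes, 1 was higher, Cdh3 (P-cadherin), with 23 counts against 2, 1 and 0, a ratio of 12.2 to NT with a counting interval of 3.37 to 100.4. Cdh1, E-cadherin, was at 814 CPM against 1033, 1084 and 825 CPM and did not pass. In the desmosome list, 1 of 11 genes was higher, Dsc2, a desmocollin, at 68.2 CPM against 27.7, 32 and 12.8 CPM, and GC centring moved it inside the limit.

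Genes of epithelial-mesenchymal transition (EMT) moved both ways. Of 10 EMT transcription factors, 2 were higher and 2 lower. Zeb1, a repressor of E-cadherin, was at 1.8 CPM against 0.23, 0.175 and 0.544 CPM, and Sox10, a neural crest and mammary progenitor factor, at 5.16 CPM against 1.24, 0.35 and 0.762 CPM. Klf4, an epithelial differentiation factor, was at 40.8 CPM against 196, 184 and 207 CPM, and Snai2, which did not pass, had 3 counts against 14, 6 and 11. Snai1 (24.6 CPM against 22.6, 14.9 and 38.6 CPM) and Twist1 (37 CPM against 37.8, 44.3 and 33.4 CPM) lay within the bulk range.

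Among 12 mesenchymal cytoskeleton and surface genes, 2 were higher and 1 lower. The median log2 fold change was −0.30, although by edgeR 4 rose and none fell, and after GC centring 3 were higher and 1 lower. Cdh2, N-cadherin, was at 64.2 CPM against 24.1, 28.5 and 31.9 CPM. Pdgfrb, the PDGF receptor beta, had 18 counts in AG3 (0.877 CPM) against 0.184, 0 and 0.109 CPM, a log2 fold change of 3.01 ± 0.99 (adjusted p = 0.0628 by edgeR, 0.18 by DESeq2). Vim, vimentin, was at 90 CPM against 45.3, 26.2 and 58.4 CPM, which is 1.54 times the highest bulk culture, and passed the test (adjusted p = 0.0742). Without TRNT its log2 fold change was 0.8, under the 2-fold minimum. Cnn1, with 2 counts in AG3, did not pass.

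Of 22 matrix genes, 3 were higher and 5 lower, with 3 lower after GC centring. Col18a1, the endostatin precursor, was at 748 CPM against 329, 308 and 197 CPM. Fn1, fibronectin, was at 2261 CPM against 587, 857 and 111 CPM, and its bulk spread left an adjusted p of 0.0975 (0.103 with RLE size factors and 0.246 by DESeq2). Sparc, a secreted collagen-binding protein, was at 2.53 CPM against 43.4, 18.9 and 60.7 CPM. The collagens Col5a1 (10.9 CPM against 71.7, 72.5 and 59.9 CPM) and Col6a1 (26.1 CPM against 91.9, 104 and 87.9 CPM) were also lower, as were Col4a2 and Col7a1 by 2.16 and 2.07-fold, both of which GC centring moved inside the limit.

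Of 14 matrix proteases and inhibitors, 2 were higher and 4 lower. Mmp2, gelatinase A, was at 3.07 CPM against 53.2, 72.8 and 83.7 CPM (log2 fold change −4.51 ± 0.36, adjusted p = 0.00282), whereas Timp1, an inhibitor of these enzymes, was at 16.4 CPM against 0.83, 1.11 and 1.1 CPM. Plat and Mmp3 were lower at under 4 CPM, and Mmp13, with 15 counts in AG3, was higher and did not pass. Of 19 integrin subunits, 6 (31.6%) were lower and none higher (median −0.61), with 4 lower after GC centring. Itga9 was at 23.2 CPM against 58.3, 62.6 and 53.3 CPM, and Itga1, a collagen receptor chain, at 4.19 CPM against 11.1, 9.85 and 10.7 CPM. Itga10, Itga2b, Itga7 and Itgb7 were lower at levels under 4 CPM in AG3, and 33.5% of the exon bases of Itga10 overlap another gene.

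**Figure D3:**
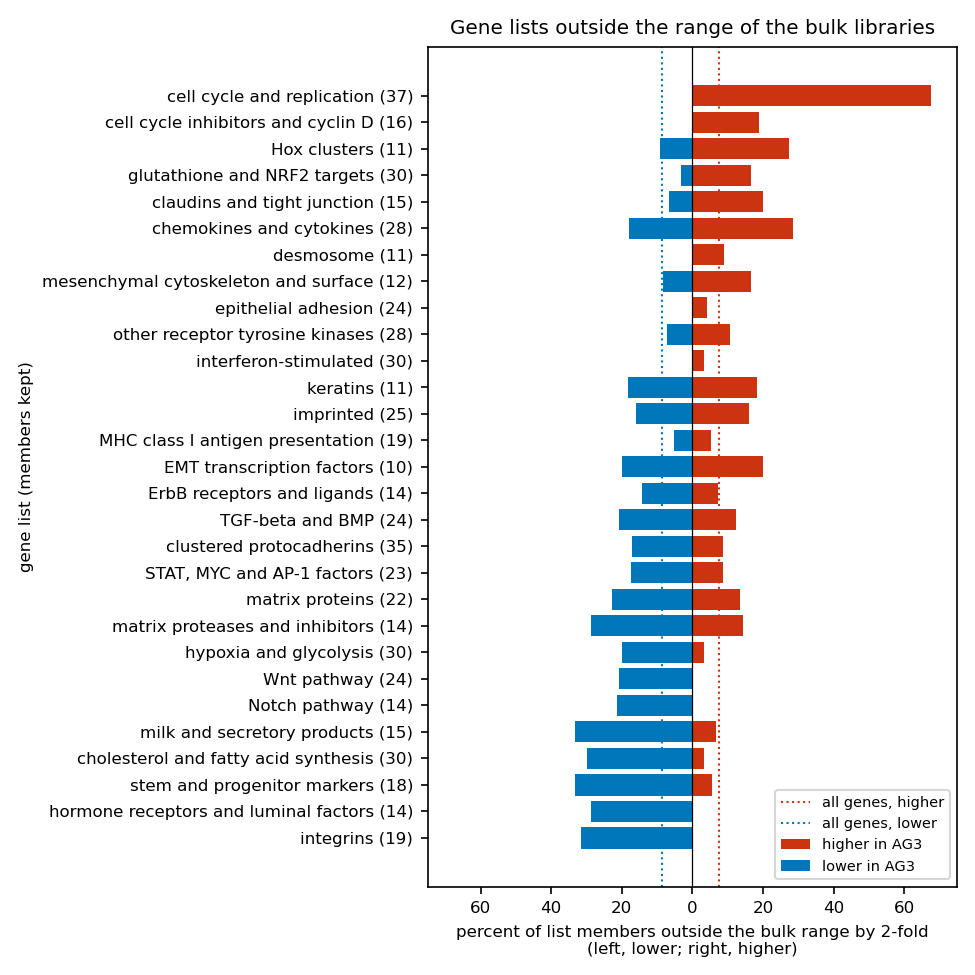
Percent of the members of each gene list with at least 10 genes measured that lay outside the bulk range by 2-fold, higher in AG3 to the right and lower to the left, with dotted lines at the percent of all 12555 genes (7.54% higher, 8.57% lower). The cell cycle list reaches 67.6% to the right, and the milk, stem marker, integrin and cholesterol and fatty acid lists reach 30 to 33.3% to the left.

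Of 30 cholesterol and fatty acid genes, 9 (30%) were lower and 1 higher (median −0.75), and by edgeR 11 fell and 1 rose. With GC centring 5 were lower and none higher, and with total counts 6 were lower. Fads1, the delta-5 desaturase of polyunsaturated fatty acids, was at 1.07 CPM against 68.3, 45.2 and 55 CPM (log2 fold change −5.70 ± 0.38, adjusted p = 0.0027), while its neighbour Fads2 was at 76.7 CPM against 172, 124 and 200.1 CPM. Scd1, which makes oleic acid, was among the most abundant transcripts of the bulk cultures, at 8616, 7634 and 7944 CPM, and was at 752 CPM in AG3 (−3.42 ± 0.19, adjusted p = 0.00205). Scd2 was at 201 CPM against 1172, 759 and 902 CPM. The regulators Srebf1 (405 CPM against 1195, 1079.8 and 876 CPM) and Srebf2 (187 CPM against 426, 391 and 432 CPM) lay just over 2-fold below the bulk range and inside the limit after GC centring, as did Mvd and Pmvk. The synthase Fdft1 (19.3 CPM against 64, 49.1 and 82.4 CPM) and the sterol sensor partner Insig1 (15.5 CPM against 49.8, 38.8 and 84.5 CPM) stayed outside.

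In the hypoxia and glycolysis list, 6 of 30 genes were lower and 1 was higher (median −0.83), with 4 lower after GC centring. Pdk1, a kinase that restrains pyruvate oxidation, was at 33.4 CPM against 111, 83.1 and 137 CPM. The collagen prolyl hydroxylases P4ha2 (12.7 CPM against 73.9, 53 and 66 CPM) and P4ha1 (145 CPM against 438, 354 and 342 CPM) were lower, and Car12, a carbonic anhydrase, had 0 counts against 0.816 to 1.47 CPM, at least 5.58-fold lower. Ndrg1 and Adm were lower, by 2.004 and 2.15-fold, and Adm did not pass. The platelet phosphofructokinase Pfkp was higher, at 262 CPM against 80.9, 60.5 and 60.7 CPM. Vegfa, an angiogenic target of hypoxia, lay within the bulk range at 231 CPM against 259.8, 207 and 247 CPM.

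Chemokines and cytokines lay outside the range on both sides, 8 higher and 5 lower of 28 (median 0.38), with 6 lower after GC centring. Il23a, the p19 chain of interleukin-23, was at 24.4 CPM against 2.21, 1.17 and 1.1 CPM (log2 fold change 3.99 ± 0.36, adjusted p = 0.00298). Ccl20, the CCR6 ligand, was at 25.3 CPM against 4.47, 4.84 and 4.24 CPM, and Cxcl16 at 49 CPM against 13.1, 10.4 and 12.1 CPM. Csf1, the macrophage growth factor, was at 213 CPM against 78.9, 87.3 and 41.9 CPM, and Il34, which binds the same receptor, at 36.5 CPM against 13.7, 11.9 and 11.6 CPM. Cxcl2, Cxcl3 and Ccl28 were higher at levels under 5 CPM. On the lower side, Ccl2, a monocyte attractant, was at 0.974 CPM against 12.4, 10.4 and 9.95 CPM, Ccl5 at 2.19 CPM against 8.84, 19.9 and 17.3 CPM, and Cx3cl1 at 42.3 CPM against 133, 139.9 and 162 CPM. Il6, interleukin-6, had 1 count in AG3 against 16, 22 and 13 counts, a ratio of 14.5 to the lowest bulk culture with a counting interval of 2.61 to 574 (edgeR adjusted p = 0.0352). Cxcl12 was at 0.779 CPM against 1.98 to 2.99 CPM.

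Of 23 STAT, MYC and AP-1 genes, 4 were lower and 2 higher (median −0.39, and 0 after GC centring). Fosb was at 142 CPM against 870, 903 and 899.9 CPM (log2 fold change −2.65 ± 0.16, adjusted p = 0.00217), Fos at 285 CPM against 673, 699 and 999 CPM, and Atf3 at 91.5 CPM against 352, 390 and 329 CPM. Jund was at 88.9 CPM against 286, 296 and 290 CPM, with 52.6% of its exon bases overlapping other genes that an unstranded library cannot separate. Fosl1 (FRA-1), a further AP-1 member, was higher, at 6.43 CPM against 1.34, 1.57 and 1.03 CPM, with 57.2% overlap. Jun (550 CPM against 613, 665 and 739.6 CPM) and Myc (168 CPM against 141, 155 and 94.3 CPM, above each bulk culture) did not pass. Stat2 was higher, at 32.6 CPM against 10.9, 11.2 and 15 CPM, and was the 1 gene of 30 interferon-stimulated genes outside the range (median 0.08). Stat3 was at 624 CPM against 903, 832 and 1071 CPM, a log2 fold change of −0.58 ± 0.19 that is under the 2-fold minimum.

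The mouse gene of the receptor that defines the model was level. Mouse Erbb2, which is distinct from the human transgene, was at 163 CPM in AG3 against 155, 134 and 165 CPM (log2 fold change 0.11 ± 0.16, adjusted p = 0.629), and the human transgene has no row in this mouse gene table. Of 14 ErbB receptors and ligands, 1 (7.14%) was higher and 2 (14.3%) were lower, against 7.54% and 8.57% of all genes. Betacellulin (Btc), an EGFR and ERBB4 ligand, was at 9.84 CPM against 1.8, 2.97 and 0.435 CPM, and epigen (Epgn) at 0.341 CPM against 1.93, 4.43 and 2.18 CPM. Errfi1, a feedback inhibitor of ErbB kinases, was at 156 CPM against 384, 444 and 523 CPM. Of 28 other receptor tyrosine kinases, 3 (10.7%) were higher and 2 (7.14%) lower, with 4 higher after GC centring. Ddr2, a collagen receptor, was at 9.2 CPM against 0.322, 0.117 and 0.0544 CPM, and Met, the HGF receptor, at 67.5 CPM against 22.7, 24.6 and 14 CPM. Mst1r (RON) was higher at 1.95 CPM, and Epha4 was lower at 1.27 CPM against 5.3, 7.69 and 7.89 CPM.

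Of 24 TGF-beta and BMP genes, 5 were lower and 3 higher (median −0.80), and by edgeR 9 fell and 2 rose. With GC centring 4 were lower. Ltbp1, which tethers latent TGF-beta to the matrix, was at 26.5 CPM against 119, 120.2 and 90.8 CPM (log2 fold change −2.06 ± 0.22, adjusted p = 0.00414), and Tgfb2 at 6.48 CPM against 25, 25.8 and 21.2 CPM. The procollagen protease Bmp1 was at 16.9 CPM against 49.2, 54.1 and 48.3 CPM, and Grem1, a BMP antagonist, had 2 counts against 19, 15 and 32, a ratio of 8.97 with a counting interval of 2.48 to 74.1. Fst, follistatin, was higher, at 16.1 CPM against 4.19, 3.15 and 4.3 CPM. Bmp4 and Gdf15 were outside the range at 28 and 13 counts and did not pass, and Smad6 was lower at 1.9 CPM against 4.31 to 5.71 CPM.

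In the Wnt list, 5 of 24 genes were lower and none higher (median −0.10, which total counts turned to 0.05 and GC centring to 0.09). With GC centring 4 were lower and 1 higher. Lef1, a transcription factor of the pathway, was at 3.31 CPM against 33.4, 24.4 and 40.7 CPM, and the ligands Wnt11 and Wnt4 were at 0.974 CPM against 7.55, 9.32 and 12.2 CPM and at 0.877 CPM against 2.9, 2.8 and 3.1 CPM. The antagonists Notum (0.39 CPM against 1.9 to 3.87 CPM) and Sfrp1 (179 CPM against 391, 439 and 739.9 CPM) were lower as well. Of 14 Notch genes, 3 were lower and none higher (median −0.36), and after GC centring 2 were lower and 2 higher (median −0.11). Hey1, a Notch target, was at 15.3 CPM against 45.6, 39.1 and 79.4 CPM, and Dll4 and Heyl were lower at under 1 CPM, Heyl without passing the test. Of 19 MHC class I presentation genes, 1 (5.26%) was lower and 1 (5.26%) higher, against 8.57% and 7.54% of all genes. The lower was Psmb8, an immunoproteasome subunit (0.682 CPM against 2.3, 2.62 and 2.45 CPM). The higher was H2-Q6 (9.15 CPM against 3.04, 3.44 and 2.88 CPM), which shares 17.9% of its windows with related genes. The number of higher genes in this list was 3 after GC centring and 4 with total counts.

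The largest differences were near all-or-nothing, and whether they are heritable was not tested. Ctsa, cathepsin A, a lysosomal protective protein (chromosome 2, 164832873 to 164841032), had 2 counts in AG3 and 1374, 1078 and 1192 counts in the bulk cultures. The bulk mean was 63.6 ± 1.07 CPM (SD, n = 3), and the ratio of the lowest bulk culture to AG3 was 645 with a counting interval of 179 to 5325. In the other 7 libraries Ctsa was at 76 to 246 CPM, so AG3 was the 1 library of 11 in which it was near 0. Kcnj12, an inward rectifier potassium channel, had 1 count against 610, 416 and 396, a ratio of 442 with a counting interval of 79.4 to 17472. Slc43a3, a purine base transporter, had 1 count against 176, 115 and 188, a ratio of 138 with an interval of 24.7 to 5434. Beside Ly6a and Fads1, the 10 genes lower by the largest fold included Aatk, a neuronal kinase (0.292 CPM against 13, 16.3 and 12 CPM), Grk3, a G protein-coupled receptor kinase (0.195 CPM against 6.49, 8.16 and 6.85 CPM), Kbtbd11 (0.292 CPM against 11.2, 7.87 and 12.8 CPM) and Glt1d1 (0 counts against 7.37, 7.92 and 5.11 CPM).

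On the higher side, Hoxa9, a homeobox gene (chromosome 6, 52223100 to 52231089), had 218 counts in AG3 (10.6 CPM) and 0 in each bulk culture, at least 60.7-fold higher than 3 counts in a library. Cyp4b1, a fatty acid hydroxylase, was at 17.3 CPM against 0.276, 0.117 and 0.218 CPM (log2 fold change 6.33 ± 0.37, adjusted p = 0.00205). Cftr, the chloride channel, was at 16.5 CPM against 0.322, 0.0583 and 0.163 CPM, and Ank2, an ankyrin, at 21.9 CPM against 0.46, 0.117 and 0.163 CPM. Each of these genes was at or near the floor in the bulk cultures. Selenop, the selenium carrier, was at 13.5 CPM against 0.23, 0.291 and 0.109 CPM, and Osr1, a transcription factor, had 144 counts against 3, 1 and 1, a ratio of 50.8 with a counting interval of 17.4 to 246. Hdx, a homeobox gene, had 105 counts against 1, 1 and 0, a ratio of 87.8 with an interval of 15.8 to 3466. Tubb2b, a beta-tubulin, had 130 counts against 6, 0 and 0, with 32.2% of its windows shared with Tubb2a and a pseudogene. The DESeq2 test did not call Tubb2b (adjusted p = 0.294). Pcdhgb5 was at 8.33 CPM against 0.046, 0.291 and 0 CPM and shares 47.7% of its windows with other protocadherins.

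Values of the other lines are set beside these. Hoxa9 was at 2.97 CPM in untreated MamBo43 and at 0 to 0.048 CPM in the 4 MamBo38 libraries. Kcnj12 and Grk3 were at 0 to 0.0961 CPM in all 7 libraries of the other lines, where AG3 had 0.0487 and 0.195 CPM. Ly6a was at 3.56 CPM in untreated MamBo43, 54.9 and 77.1 CPM in its trastuzumab-treated cultures and 182 to 214 CPM in MamBo38. Scd1, at 752 CPM in AG3, was at 216 to 619 CPM in the other lines, all below AG3. Conversely, Ank2 (62.5 to 90.4 CPM), Selenop (58.2 to 90.2 CPM), Osr1 (54.6 to 90.9 CPM) and Ddr2 (642 to 776 CPM) were higher in MamBo38 than in AG3. Over all genes, 198 (1.58%) were higher and 208 (1.66%) lower than all 10 other libraries by at least 2-fold. These were 20.9% of the 947 genes above and 19.3% of the 1076 genes below the bulk range.

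Among the genes higher than in all 10 other libraries, the largest folds were those of Camkv (8.42 CPM against at most 0.368 CPM), Hdx, Krt17, Il23a and Tox2 (6.91 CPM against at most 0.691 CPM). Among the lower ones, Ctsa, Slc43a3 and Fads1 led, followed by Atp8b2, a phospholipid flippase (0.682 CPM against 17.9 CPM or more), and Amigo2, an adhesion protein (0.243 CPM against 5.17 CPM or more). Mcm6, Mcm3 and Cdc6, a licensing factor, were the cell cycle genes of this set. Ccnb1, Cdc20 and Top2a were not in it. The second untreated MamBo38 library, the one with the same code as the MamBo89 libraries, stood at 100.1, 65.3 and 259 CPM. The other 3 MamBo38 libraries were at 35.1 to 37.8, 20.6 to 22.8 and 75.2 to 93.8 CPM. Among the cultures with that code, untreated MamBo43 was at 7.71, 12.2 and 39.5 CPM for these genes, and the MamBo89 bulk cultures as given above.

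**Figure D4:**
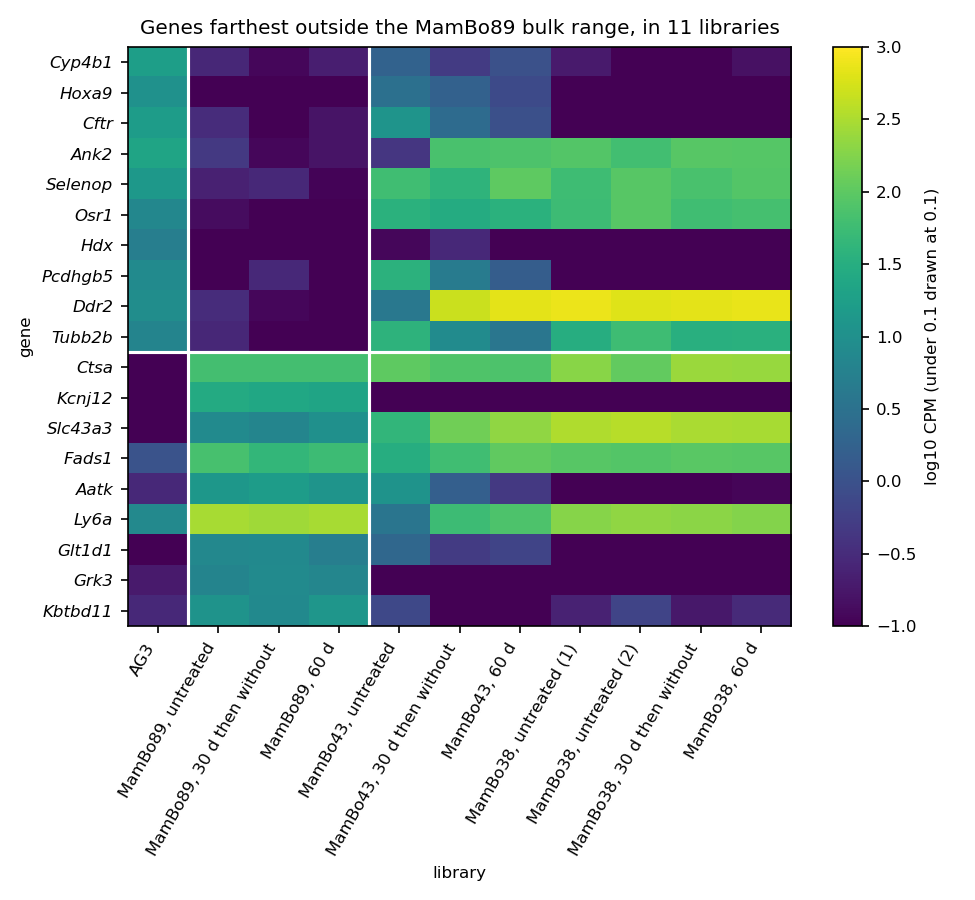
Level of the 10 genes above and 9 of the 10 genes below the bulk range by the largest fold in the 11 libraries, as log10 CPM with values under 0.1 CPM drawn at 0.1. Ctsa is near 0 in AG3 alone, Kcnj12 and Grk3 are near 0 in AG3 and the other lines, and Ank2 and Ddr2 are at their highest in MamBo38.

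The differences were unevenly spread over chromosomes. On chromosome 13 the median log2 difference of 463 genes from the bulk mean was 0.71, with 83.8% of them above 0, 110 genes (23.8%) outside the range and higher, and 13 (2.81%) lower. The next were chromosome 1 with a median of 0.35 (711 genes, 94 higher and 41 lower) and, on the lower side, chromosome 15 with −0.46 (499 genes, 23 higher and 82 lower). The bulk cultures, each against the other 2, had chromosome medians between −0.09 and 0.09. In AG3, chromosomes 19, 5 and 8 had medians of −0.32, −0.31 and −0.25. Of 12 stretches of 10 Mb on chromosome 13 with at least 10 genes, all had a median above 0, from 0.56 to 1.07, and all 9 on chromosome 15 had one below 0, from −0.60 to −0.07.

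GC content differed between chromosomes, with a median of 46.1% for chromosome 13 and 52.8% for chromosome 15, against 49.9% for all genes. In the 5 groups by GC content, chromosome 13 had medians of 0.93, 0.74, 0.60, 0.38 and 0.32, each above that of all genes, and chromosome 15 had −0.06, −0.17, −0.36, −0.65 and −0.61, each below. After GC centring the medians were 0.64 for chromosome 13, 0.30 for chromosome 1, −0.32 for chromosome 15 and 0.27 for chromosome 7. Ccnb1 lies on chromosome 13, Mcm6 and Mcm3 on chromosome 1 and Ly6a on chromosome 15, and their differences were larger than the medians of their chromosomes. Whether DNA copy number differed was not measured here.

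**Figure D5:**
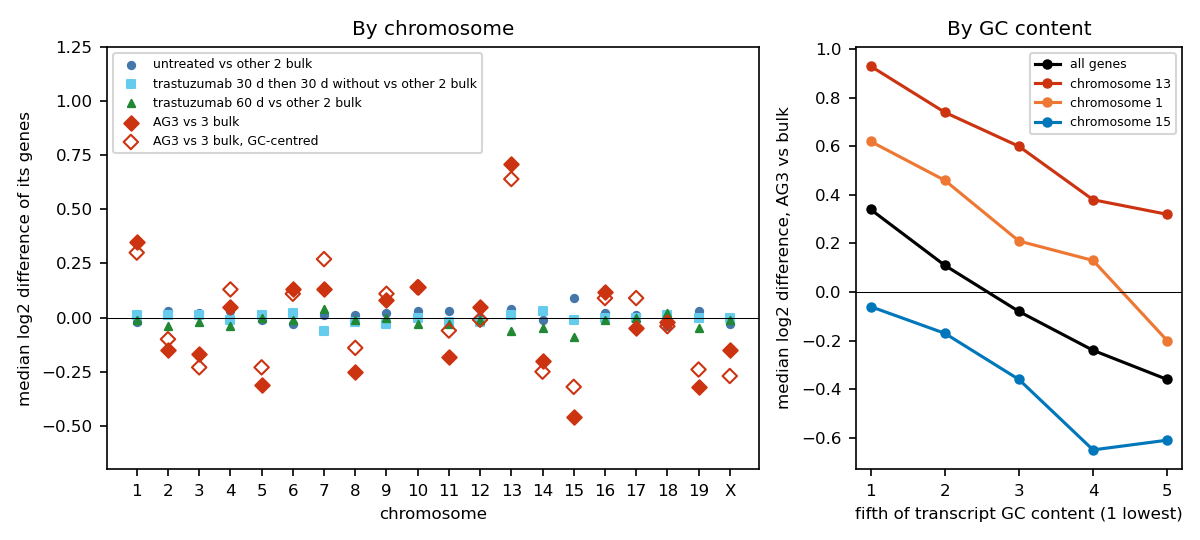
Left, median log2 difference of the genes of each chromosome for AG3 against the bulk mean (filled diamonds, 0.71 for chromosome 13 and −0.46 for chromosome 15), after GC centring (open diamonds), and for each bulk culture against the other 2 (small symbols, −0.09 to 0.09). Right, the AG3 medians in 5 groups by transcript GC content for all genes and for chromosomes 13, 1 and 15; chromosome 13 lies above and chromosome 15 below the line of all genes in each group.

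Over runs of 25 neighbouring genes, medians ranged from −1.04 to 1.56 in AG3 and from −0.44 to 0.59 in the bulk cultures. The highest run lay on chromosome 17 (21008903 to 23599487, Zfp160 to Zfp13), where 23 of 25 genes carry zinc finger symbols, 14 were outside the range and higher, and none was lower. After GC centring the median of this run was 1.07, and Zfp53, Zfp983, Zfp229, Zfp994, Zfp758 and Zfp40 moved inside the limit. Zfp820 was at 9.69 CPM against 0.368, 0.466 and 0.272 CPM (log2 fold change 4.70, adjusted p = 0.00287), and Zfp946 at 13.3 CPM against 0.875, 0.699 and 0.925 CPM. A run on chromosome 13 (67038596 to 67827002, Zfp712 to Zfp273) had a median of 1.24, with 22 zinc finger symbols, 12 genes higher and none lower. GC centring lowered the median of this run to 0.84 and moved Zfp595, Zfp748, Zfp738, Zfp65, Zfp493 and Zfp273 inside the limit. The TRT culture was also above the other bulk cultures there, by a median of 0.59. Such arrays are known to encode KRAB zinc finger proteins, repressors of transposable elements. Of the 75-base windows of Zfp820 and Zfp946, 0.221% and 0.699% are shared with other transcripts. Among the other higher genes of these runs, the share ran from 0, as for Zfp53, to 49.6% for Zfp58.

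Zinc finger symbols were therefore counted over the genome, a family chosen after these values were seen. Of 363 genes, 74 (20.4%) were higher and 4 (1.1%) lower, against 7.54% and 8.57% of all genes. The median log2 difference was 0.49 in AG3, and −0.11, −0.18 and 0.27 in NT, TRNT and TRT. Outside chromosomes 7, 13 and 17 the median was 0.18 for 190 genes, of which 18 (9.47%) were higher and 3 (1.58%) lower. With GC centring, 53 were higher and the median was 0.35, their median GC content being 44.1%. The lowest run lay on chromosome 11 (94343295 to 95587735, Abcc3 to Ngfr), where Abcc3, a bile salt and drug efflux pump, was at 3.26 CPM against 11.6, 13.4 and 18.4 CPM and Dlx3, a homeobox gene, had 2 counts against 30, 18 and 27, a ratio of 10.8 with an interval of 2.98 to 88.9. In that run 4 genes were lower and 2 higher by at least 2-fold. With GC centring its median was −0.7, and the lower genes Xylt2 and Fam117a moved inside the limit.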

How the data were processed

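Total RNA of 11 cultures was made into unstranded TruSeq v2 libraries and sequenced as single reads of 75 bases. Per the labels and methods, the authors aligned the reads to mm10 with STAR 2.5 and deposited expected counts per gene, estimated with RSEM 1.3.0 and held as whole numbers, for 21846 genes in 11 libraries. The other assays of the study were not used here.

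The AG3 library was compared with 3 MamBo89 bulk libraries. Members and gene lists were chosen with earlier results of these data known. Genes passed edgeR's filterByExpr (minimum count 10, total 15), CPM used TMM factors over 11 libraries, and 3 counts were the floor. A gene lay outside the range when AG3 was at least 2-fold above the highest or below the lowest bulk library. Fits used edgeR 4.0.16 (glmQLFit, glmQLFTest, prior count 0.125, Benjamini-Hochberg adjusted p under 0.1 and a log2 change of at least 1) in R 4.3.3, with DESeq2 1.42.0 as an alternative. The bulk libraries are cultures of different conditions (NT, TRNT and TRT) and not replicates of 1 condition. The p-values and SDs therefore rest on a spread between these libraries that includes treatment, and the bulk mean includes treated cultures.

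On simulated counts with 200 of 12240 genes changed 8-fold, the edgeR test recovered 98% of them and made 7 false calls. The range rule recovered 99.5% and placed 84 unchanged genes (0.6977%) outside. Apart from the changed genes, all simulated libraries were drawn from the bulk means, with no GC trend or chromosome shift in AG3. These rates are therefore not error rates for the real AG3 library. Ratios with 1 to 3 counts carry exact Poisson 95% intervals, which cover counting error only. Named genes are the 10 with the largest fold in each direction among genes of at least 5 CPM on the higher side, list members outside the range, genes of interest in the study, those nearest the 2-fold limit, and genes in the highest and lowest runs of 25 neighbours. List members inside the limit, the Ly6 neighbours and the zinc finger family were added after their values were seen. Positions and transcript GC content come from a GENCODE annotation of GRCm38, and promoters from RefSeq on GRCm38.p6. A few named genes that meet these rules are not reported here.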

Additional observations from a re-analysis of the deposited data

Results flagged for a closer look

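Among 19 named genes examined in the 4 MamBo38 libraries, 2 of them untreated and 2 trastuzumab-treated, 7 had a library far from the others by Dixon's ratio of gap to range. Chance gives about 1 in 20 for independent genes in replicate libraries. That rate cannot be applied to this count. Ccnb1, Cdc20, Top2a and Mcm6 were picked as cell cycle genes, and the libraries differ in treatment and code. In the second untreated library, the ratio was 0.959 for Ccnb1 (100.1 CPM against 35.1 to 37.8 CPM), 0.95 for Cdc20 (65.3 CPM against 20.6 to 22.8 CPM), 0.899 for Top2a (259 CPM against 75.2 to 93.8 CPM) and 0.89 for Mcm6 (62.7 CPM against 27 to 31 CPM). The same library was highest for Tubb2b (0.849, 57.9 CPM against 30.5 to 34.7 CPM) and lowest for Ank2 (0.86, 62.5 CPM against 86.5 to 90.4 CPM). It is the MamBo38 library that shares its code with the MamBo89 libraries. For Hoxa9 the ratio was 1, from a single count in the first library and 0 in the other 3.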

How the results depend on the processing

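The 2023 genes outside the bulk range became 893 at 3-fold, 536 at 4-fold and 1292 with at least 5 CPM on the higher side, and the 406 genes outside all 10 other libraries became 87 at 4-fold, all stricter rules. Under RLE factors, TMM over 4 libraries, total counts, no filter, at least 10 counts in every library and GC centring, the range count lay between 1406 and 2092, and it was 2893 against the untreated bulk library alone. Leaving out 1 bulk library gave 2246 to 2383 genes. With total counts the split was 1209 higher and 877 lower. The edgeR count of 2408 became 631 when the fold itself was tested against 2-fold with glmTreat, 2254 with DESeq2 (2175 shared) and 2250 to 2591 without 1 bulk library, and total counts gave 1527 higher and 968 lower. GC centring, chosen after seeing the data, gave chromosome medians of 0.64 for 13, 0.30 for 1 and −0.32 for 15, and 5 lower cholesterol and fatty acid genes in place of 9. Chromosome 1 was 0.37 in genes of at least 5 CPM and 0.33 to 0.36 without 1 bulk library. The log2 difference of Cd44 was 0 with DESeq2. Of 201 named genes, 16 no longer passed with DESeq2, 1 with RLE, 14 without NT and 8 without TRNT, and the cause was not tested. No paired analysis was possible because AG3 is 1 library, so the groups share fewer than 2 replicate numbers. Depth limits genes near 3 counts: 175 lower genes had 3 counts or fewer in AG3, and 73 higher genes had them in every bulk library.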

Other observations

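Of 30 glutathione and NRF2 target genes, 5 were higher and 1 lower by at least 2-fold (median log2 fold change 0.24). Each of the 5 encodes a glutathione transferase, an enzyme that conjugates electrophiles. Gsta4 was at 9.25 CPM in AG3 and at 1.89, 0.874 and 1.58 CPM in NT, TRNT and TRT, and Gsta3 was at 9.3 CPM against 2.07, 1.22 and 1.09 CPM. Gstm1 and Gstm2 were both at 1.8 CPM against at most 0.49 CPM, and Gstp2, at 1.61 CPM, shares 68.2% of its windows with related genes and did not pass with DESeq2. Gpx3, a secreted peroxidase, was lower at 0.341 CPM against 1.38, 0.874 and 2.18 CPM. Beside Hoxa9, the neighbouring Hoxa7 (5.84 CPM against 0.737, 0.233 and 0.707 CPM) and Hoxa10 (2 CPM against 0.23, 0.117 and 0.326 CPM) were higher and Hoxa13 (1.12 CPM against 5.89, 5.01 and 6.53 CPM) was lower, 4 of the 11 Hox genes with enough counts.

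Of 25 imprinted genes, which are expressed from 1 parental allele, 4 were higher and 4 lower (median −0.22). Peg3 was at 4.63 CPM against 59.6, 63.6 and 100.3 CPM, and its neighbour Zim1 had 0 counts against 17, 6 and 13, at least 2.39-fold lower. Mcts2 (1.41 CPM against 11.2, 9.21 and 9.08 CPM) and Nnat (3 counts) were also lower. Igf2 was higher at 9.74 CPM against 1.75, 0.932 and 0.49 CPM, with 75.8% of its windows shared with an overlapping transcript model, as were Cdkn1c, Slc22a18 and Mkrn3 at under 3 CPM. Of 35 clustered protocadherins, which share reads with each other, 3 (8.57%) were higher and 6 (17.1%) lower (median −0.39), against 7.54% and 8.57% of all genes. They included Pcdhga6 (12.9 CPM against 1.93, 1.63 and 1.41 CPM) and Pcdhgb1 (11.3 CPM against 39.2, 32.7 and 38.1 CPM).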
